A study of Mus musculus with 130 samples.

Results

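The 10 genes described here form a hypoxia and nutrient-stress group: the oxygen-regulated transcription factor gene Hif1a, the oxygen sensor genes Egln1 and Egln3, the hypoxia-inducible genes Bnip3, Ndrg1, Ankrd37, P4ha1 and Vegfa, and the nutrient-stress genes Ddit4 and Txnip. They were chosen by name, with earlier results of these data known, and all 10 were found among the 52550 genes of each RNA table. Their levels were read in all 10 RNA libraries of the series, which otherwise comprises chromatin and methylation samples of mouse embryonic stem cells that are not analysed here.

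All libraries came from embryonic stem cells grown on gelatin with serum and LIF, from total RNA by Smart-seq2, a full-length method without molecular identifiers. In the line TT2 (C57BL/6xCBA), WT TT2 is the wild type, G9a CM lacks G9a and carries a transgene of G9a with the changes Y1120V and Y1207F (genotype G9a-/- Tg(Y1120V;Y1207F), clone G7), and G9aDKO lacks G9a and its partner GLP (G9a-/-;GLP-/-, clone 248-6). G9a and GLP are histone H3 lysine 9 methyltransferases, and each of these mutant lines is 1 clone. In the line J1 (129S4/SvJae), WT J1 is the wild type, DnmtDKO lacks the de novo DNA methyltransferases (Dnmt 3a/3b-/-), and DnmtTKO lacks the maintenance enzyme as well (Dnmt1/3a/3b-/-). The other 4 libraries came from wild-type TT2 cells: 3 from cells given UNC0638, an inhibitor of G9a and GLP, and collected on day 2, 4 or 14, and 1 called the inhibitor control, for which the protocol names DMSO. The dose is 250 nM in the titles and 250 µM in the treatment protocol. The labels give the control no day and do not say whether the cells of day 14 were treated throughout. Each group is 1 library, so no comparison had replicates and none was tested: intervals printed below cover counting error only.

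In cells with enough oxygen, Egln enzymes hydroxylate prolines of HIF-1 alpha, the protein of Hif1a, and the Vhl ubiquitin ligase then marks it for breakdown. When oxygen falls, HIF-1 alpha persists, pairs with Arnt and binds a short DNA core at genes of glycolysis, mitophagy, angiogenesis and collagen modification, among them Bnip3, Vegfa and P4ha1, and also Egln1 and Egln3, which thereby feed back on it. Ddit4 (also called Redd1) lowers mTORC1 activity under hypoxia, energy stress and endoplasmic reticulum stress, and Txnip binds thioredoxin, limits glucose uptake and is induced through MondoA when glucose metabolites rise.

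Library totals ran from 11436808 to 25609600 counts, and 3 counts were worth between 0.118 and 0.236 CPM (counts divided by the library size in units of 1e6 counts, with sizes scaled by TMM). The 6 wild-type and mutant libraries and the 4 inhibitor libraries stood apart as sets: fragment lengths implied by the tables were 151 to 199 bases against 252 to 276 bases, and summed mitochondrially encoded genes were 22588 to 37747 CPM against 10392 to 17418 CPM. Summed embryonic stem cell markers, all 8 of them detected, were 2808 to 4191 CPM in the first set and 5076 to 5529 CPM in the second. These markers were divided: in the inhibitor control, 4 of the 8 were above WT TT2 and 4 below, each beyond counting error. Summed trophoblast markers were 26.1 to 71.8 against 90.0 to 189 CPM, neural markers 22.0 to 71.8 against 149 to 222 CPM, and fibroblast markers 3.42 to 11.9 against 9.51 to 19.0 CPM. Neural markers were divided as well: of 5 that reached 1 CPM in the inhibitor control or WT TT2, 3 were higher in the inhibitor control and 2 lower, beyond counting error. Primitive endoderm markers overlapped, at 32.5 to 82.8 against 49.1 to 56.6 CPM. Of the targeted genes, Dnmt3b stood at 26.9 CPM in WT J1, 3.05 in DnmtDKO and 2.68 in DnmtTKO, and Dnmt1 at 46.6, 62.5 and 6.35 CPM. Ehmt1, which encodes GLP, stood at 38.3 CPM in WT TT2 and 7.95 CPM in the G9aDKO library, but Ehmt2, which encodes G9a, was not lower there (14.6 against 17.9 CPM), so it is named by its label throughout, as the library labelled G9aDKO. A transcript can remain after a deletion, and the deleted exons are not given in the labels.

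The promoters of the members are shown first because 8 of the 10 rose together in 1 library, described below. RefSeq's table for GRCm38.p6 held promoter windows (250 bases before to 50 after a start site) for 9 of the 10 members, all but Ndrg1, with 10 windows in all since Vegfa had 2. The windows of 5 members that rose, and of Hif1a, which did not, read 5′ to 3′ on each gene's own strand as follows, with every match to the HIF core ACGTG or its variant GCGTG on either strand in capitals, and in Txnip the carbohydrate response element in capitals too.
Bnip3 (chr7:138909457-138909756, minus strand): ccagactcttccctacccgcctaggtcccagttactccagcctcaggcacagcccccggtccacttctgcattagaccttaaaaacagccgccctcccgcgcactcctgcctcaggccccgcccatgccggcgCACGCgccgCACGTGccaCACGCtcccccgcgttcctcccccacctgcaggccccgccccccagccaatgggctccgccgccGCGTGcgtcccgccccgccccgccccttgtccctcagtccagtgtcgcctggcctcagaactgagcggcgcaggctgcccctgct
Ddit4 (chr10:59951721-59952020, minus strand): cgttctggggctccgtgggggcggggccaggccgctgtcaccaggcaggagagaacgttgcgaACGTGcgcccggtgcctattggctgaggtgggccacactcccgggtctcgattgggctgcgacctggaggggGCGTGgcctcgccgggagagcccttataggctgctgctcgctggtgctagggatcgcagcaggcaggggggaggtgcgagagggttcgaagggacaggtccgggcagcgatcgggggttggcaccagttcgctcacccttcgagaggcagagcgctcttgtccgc
Txnip (chr3:96557707-96558006, plus strand): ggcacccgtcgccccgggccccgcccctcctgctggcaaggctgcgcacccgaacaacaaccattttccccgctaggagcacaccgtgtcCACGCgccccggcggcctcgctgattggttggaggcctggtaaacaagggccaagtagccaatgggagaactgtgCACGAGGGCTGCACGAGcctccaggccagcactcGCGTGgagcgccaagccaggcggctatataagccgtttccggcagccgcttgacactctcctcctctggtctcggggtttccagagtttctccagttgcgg
Ankrd37 (chr8:45999801-46000100, minus strand): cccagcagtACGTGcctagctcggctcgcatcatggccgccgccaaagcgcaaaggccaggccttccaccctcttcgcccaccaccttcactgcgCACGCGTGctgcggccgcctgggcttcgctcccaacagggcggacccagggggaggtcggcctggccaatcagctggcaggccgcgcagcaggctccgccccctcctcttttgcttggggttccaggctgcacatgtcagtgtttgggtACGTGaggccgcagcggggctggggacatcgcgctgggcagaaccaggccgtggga
P4ha1 (chr10:59323046-59323345, plus strand): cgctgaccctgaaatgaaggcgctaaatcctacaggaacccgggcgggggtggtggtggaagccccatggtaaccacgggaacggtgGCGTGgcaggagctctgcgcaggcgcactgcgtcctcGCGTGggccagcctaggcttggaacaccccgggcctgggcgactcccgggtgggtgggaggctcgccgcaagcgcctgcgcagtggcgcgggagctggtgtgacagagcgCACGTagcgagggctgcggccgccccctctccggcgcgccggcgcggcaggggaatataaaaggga
Hif1a (chr12:73907617-73907916, plus strand): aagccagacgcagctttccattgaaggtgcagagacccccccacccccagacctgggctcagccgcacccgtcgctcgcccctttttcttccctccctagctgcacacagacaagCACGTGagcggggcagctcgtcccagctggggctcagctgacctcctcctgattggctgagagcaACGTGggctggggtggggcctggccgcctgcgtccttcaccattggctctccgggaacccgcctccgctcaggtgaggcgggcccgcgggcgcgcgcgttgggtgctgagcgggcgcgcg
On the opposite strand the cores read CACGT and CACGC in these lines. All 9 members had ACGTG or GCGTG in at least 1 window, and every window had one but 1 of the 2 of Vegfa. Counted by window, 43.8% of all 32851 promoters in the table had one (19.6% with ACGTG, 32.4% with GCGTG). The members were chosen by name and include known HIF targets, so this contrast is not independent evidence. In Bnip3, CACGTG at position -108 from the start, an E-box that reads the same on both strands, accounts for both matches to ACGTG, and GCGTG matched at -117, -99 and -35. Hif1a likewise held CACGTG, at -135, with another ACGTG at -70. Of all promoters 7.15% hold CACGTG. Ankrd37 held ACGTG at -241 and -6 and overlapping matches to GCGTG at -155 and -152. P4ha1 held ACGTG at -16 and GCGTG at -163 and -126, and Ddit4 held ACGTG at -187 and GCGTG at -115. Txnip had no ACGTG but GCGTG at -160 and -51, and the carbohydrate response element, the paired site to which MondoA binds, at -85, which matched 16 of all promoters (0.0487%). Egln1 (ACGTG at -68, GCGTG at -126) and Egln3 (ACGTG at -229) also had a core, and for Vegfa the window at chr17:46032328-46032627 had none while that of a start further into the gene, chr17:46025114-46025413, had 1 of each. TGATGNAA, a core of the site bound by Atf4, matched none of the members' windows and 3.97% of all. These are matches of letters and do not show that a factor was bound. Ddit4 and P4ha1, which were both among the 8 members that rose, lie 576 kb apart on chromosome 10, whereas the other pairs on 1 chromosome lie 19.7 Mb (Egln3 and Hif1a, chromosome 12) and 78.9 Mb apart (Egln1 and Ankrd37, chromosome 8).

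The comparison of UNC0638 day 2 with the inhibitor control asks which genes differ early in inhibition of G9a and GLP. A gene was called higher or lower where its log2(CPM + 1) values differed by at least 1, it reached 1 CPM in either library and the exact 95% interval of its count ratio did not hold 1. Of the 10 members, 8 were called higher (Bnip3, Ddit4, Txnip, Ndrg1, P4ha1, Egln3, Ankrd37 and Egln1) and 0 lower. Among all 13294 genes measured, 3.12% were called higher and 1.84% lower, a split of 62.9% higher among the calls (83.1% with total counts, 76.7% with TPM, 51.6% with DESeq2's size factors). Folds below are ratios of CPM without the added 1. The median log2 difference of the 9 members that reached 1 CPM was 1.63, beside 0.01 over all genes measured. In bulk RNA a change in the share of cells that express a gene cannot be told apart from a change per cell. Because the members were chosen with these libraries' results known, these counts describe them and are not independent evidence.

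Hif1a (ENSMUSG00000021109.13, chromosome 12, 73901324 to 73947554), the alpha subunit gene itself, stood at 165 CPM in the inhibitor control and at 155, 142 and 163 CPM on days 2, 4 and 14. Its day 2 level was 1.06-fold lower than the control (interval 1.01 to 1.12), far from the call, and by total counts or TPM it was slightly higher instead (log2 differences 0.14 and 0.16). The other HIF subunit genes were likewise not called on day 2. Epas1, which encodes HIF-2 alpha, stood at 24.7 against 35.8 CPM, Arnt at 62.7 against 51.0 CPM and Hif3a at 1.83 against 1.32 CPM.

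Egln1 (ENSMUSG00000031987.6, chromosome 8, 124908587 to 124949254), the main prolyl hydroxylase that marks HIF-1 alpha in normal oxygen, was low in this set: 1.62 CPM in the inhibitor control (22 counts) and 4.58, 2.61 and 3.23 CPM on days 2, 4 and 14. The day 2 level was 2.84-fold higher (interval 1.76 to 4.75), and by deposited TPM its log2 difference of 0.93 fell just short of the call. Egln3 (ENSMUSG00000035105.5, chromosome 12, 54178981 to 54203874), the strongly hypoxia-inducible member of the family, stood at 8.81 CPM in the control and 28.1, 6.24 and 11.2 CPM on days 2, 4 and 14. Day 2 stood alone above the other 3, at 3.19-fold the control (interval 2.61 to 3.92). No other gene of the oxygen-sensing list was called: Egln2, the paralogue not known for induction by hypoxia, stood at 65.3 CPM on day 2 against 92.5 CPM, Vhl at 42.9 against 43.8 CPM and Hif1an, the asparagine hydroxylase, at 22.9 against 23.4 CPM. Without Egln1 and Egln3, 0 of 15 measured genes of that list were called in either direction, beside the 3.12% and 1.84% over all genes.

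Bnip3 (ENSMUSG00000078566.8, chromosome 7, 138890836 to 138909506), a mitophagy receptor on the outer mitochondrial membrane, had the largest fold of the members on day 2, within counting error of that of Ddit4. Its level was 49.1 CPM in the inhibitor control and 251, 36.6 and 65.3 CPM on days 2, 4 and 14. Day 2 was 5.10-fold above the control (interval 4.70 to 5.54), and days 4 and 14 lay on either side of it. Its paralogue Bnip3l, also a mitophagy receptor, was not called (86.3 against 59.7 CPM). Pink1, the kinase of the Parkin mitophagy route, was 2.79-fold lower on day 2 (interval 2.18 to 3.58), the 1 call among the other 10 measured genes of the mitophagy list.

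Ndrg1 (ENSMUSG00000005125.12, chromosome 15, 66929318 to 66969641), a cytoplasmic protein gene induced by hypoxia and by differentiation, stood at 19.0 CPM in the control and 72.6, 17.4 and 30.2 CPM on days 2, 4 and 14. Day 2 was 3.82-fold higher than the control (interval 3.34 to 4.38). Ndrg2, Ndrg3 and Ndrg4 were not called, at 50.7 against 37.6, 49.2 against 41.8 and 40.1 against 41.3 CPM. Ankrd37 (ENSMUSG00000050914.16, chromosome 8, 45996908 to 46000414), an ankyrin-repeat gene known as a HIF-1 target, went from 11.2 CPM in the control to 35.1, 8.20 and 13.6 CPM, which is 3.14-fold higher on day 2 (interval 2.63 to 3.77). P4ha1 (ENSMUSG00000019916.14, chromosome 10, 59323197 to 59373304), the catalytic subunit gene of collagen prolyl 4-hydroxylase, went from 18.7 CPM to 60.3, 18.4 and 30.1 CPM, which is 3.22-fold higher on day 2 (interval 2.81 to 3.70). All 3 had day 2 as the highest of the 4 libraries and day 14 as the next. P4ha2, the second catalytic subunit gene, rose 2.15-fold on day 2 (interval 1.86 to 2.48), and P4hb, the shared beta subunit, was not called (994 against 1200 CPM).

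Vegfa (ENSMUSG00000023951.17, chromosome 17, 46016993 to 46032377), the main angiogenic growth factor, was under 1 CPM in all 4 inhibitor libraries, at 0.441 CPM in the control (6 counts), 0.611 on day 2 (12 counts), 0.0594 on day 4 (1 count) and 0.517 on day 14 (8 counts). The day 2 ratio was 1.39 with an interval of 0.481 to 4.50, so at this depth a rise of the size seen in Egln3 could not be told apart from no change. Vegfb and Vegfc, its relatives, stood at 4.58 against 3.82 and 2.80 against 4.04 CPM on day 2, with no call.

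Of the nutrient-stress genes, Ddit4 (ENSMUSG00000020108.4, chromosome 10, 59949675 to 59951770) stood at 15.6 CPM in the control and 77.6, 8.02 and 18.7 CPM on days 2, 4 and 14. It was 4.96-fold higher on day 2 (interval 4.29 to 5.75) and 1.95-fold lower than the control on day 4 (interval 1.56 to 2.44), just short of a call. Its paralogue Ddit4l (7.89 against 5.51 CPM on day 2) and the stress-induced sestrin gene Sesn2 (175 against 126 CPM) were not called. Txnip (ENSMUSG00000038393.14, chromosome 3, 96557957 to 96561857) stood at 54.1 CPM in the control and 252, 40.2 and 42.1 CPM on days 2, 4 and 14, 4.65-fold higher on day 2 (interval 4.30 to 5.03). Its relative Arrdc4, which also limits glucose uptake and answers to MondoA, rose 2.05-fold (interval 1.87 to 2.24), while Arrdc3 did not pass the call (18.4 against 17.4 CPM). In the plot of levels, day 2 is the highest of the 4 inhibitor libraries for 9 of the 10 genes, all but Hif1a, although for Vegfa and Egln1 it lay within counting error of day 14. What share of all genes was highest on day 2 was not counted.

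**Figure D1:**
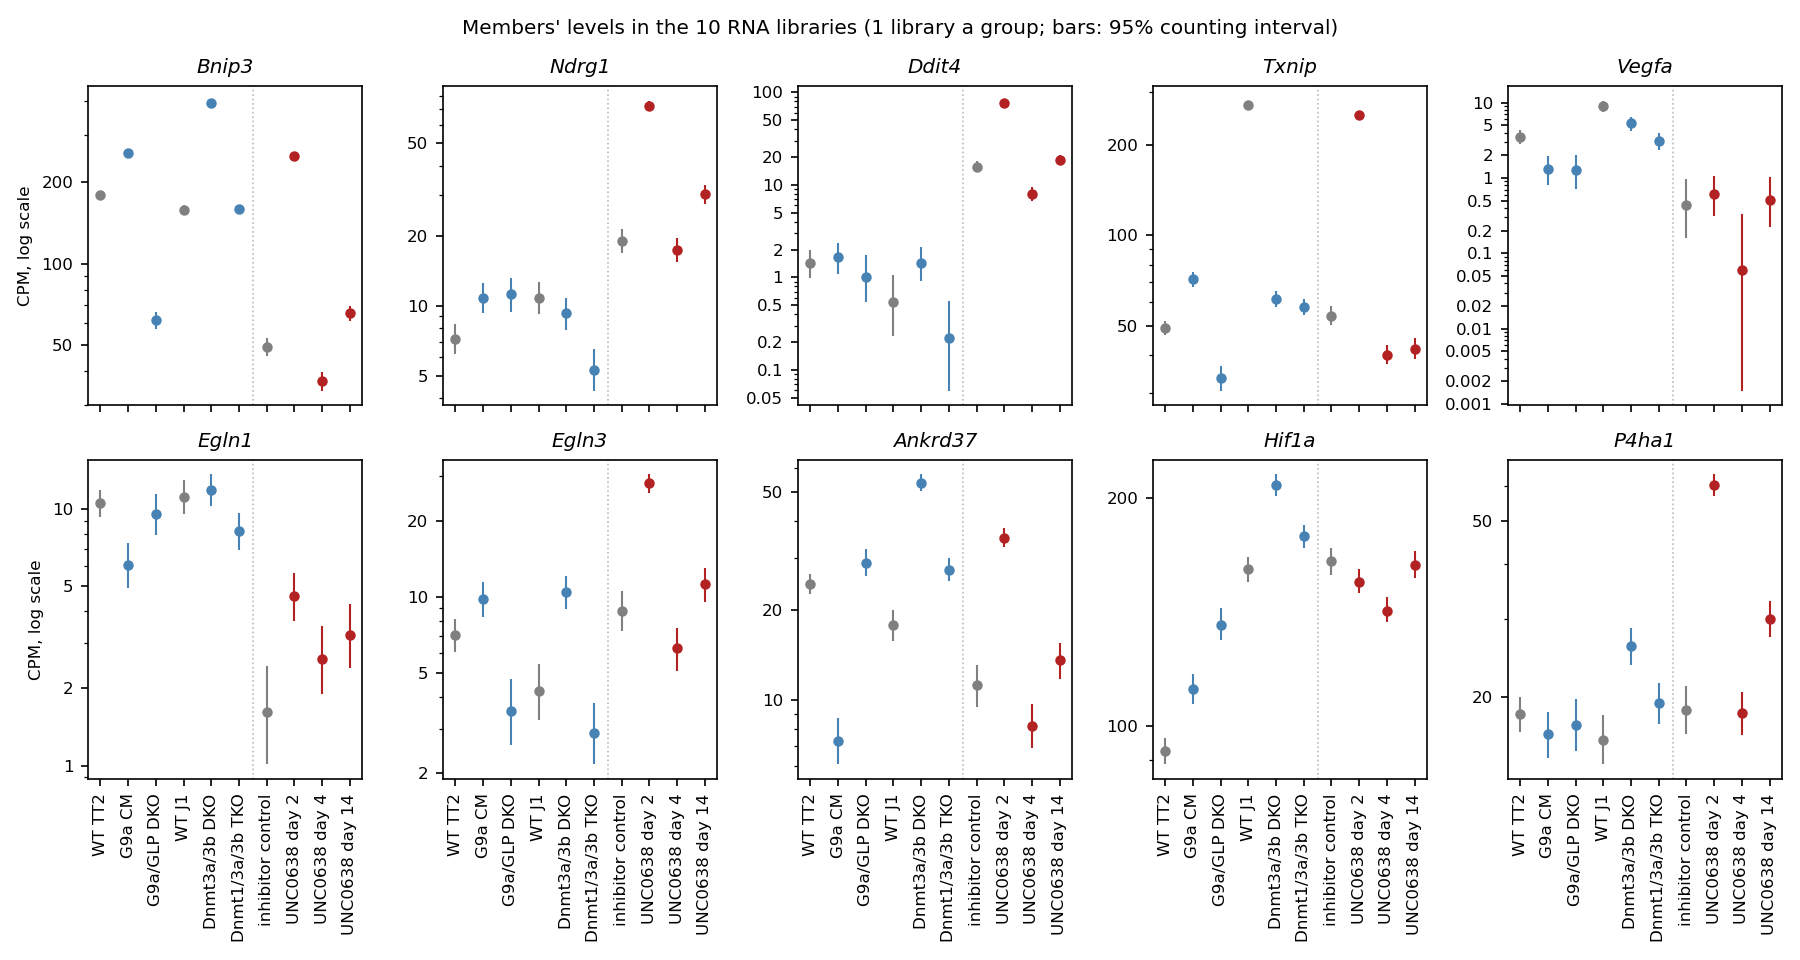
Level of each of the 10 genes (CPM, log axis, each panel with its own range) in the 10 RNA libraries, 1 library a group, with bars for the 95% counting interval. Grey points are wild-type or control libraries, blue points mutants and red points UNC0638; the dotted line parts the 6 wild-type and mutant libraries from the 4 inhibitor libraries, and the axis gives G9aDKO as G9a/GLP DKO and the Dnmt mutants with their deleted genes. Ddit4 lies between 0.219 and 1.65 CPM left of the line and between 8.02 and 77.6 CPM right of it.

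By day 4 the calls of day 2 were gone. Of the 10 members, 0 were called higher and 0 lower on day 4 against the inhibitor control, where 1.95% of 13112 genes were called higher and 0.671% lower; on day 14 the counts were again 0 and 0, where 2.92% of 13269 genes were called higher and 0.535% lower. Against day 2 itself, day 4 had 7 members lower and 0 higher, among 2.39% of all genes lower and 1.91% higher (44.4% of calls higher, against 20.2% with total counts and 57.4% with DESeq2's size factors). The falls ran from 3.28-fold for P4ha1 (interval 2.89 to 3.73) to 9.67-fold for Ddit4 (interval 8.10 to 11.6), and Egln1, at 1.75-fold lower (interval 1.21 to 2.57), was the member that had risen but was not called. From day 4 to day 14, 1 member was called higher and 0 lower, among 1.61% and 0.294% of all genes: Ddit4, at 2.33-fold higher (interval 1.89 to 2.88). These comparisons share libraries (the inhibitor control, day 2 or day 4), so they are not independent of each other. Of the 9 members that reached 1 CPM, 6 lay below the inhibitor control beyond counting error on day 4 and 0 above. Over all 13112 genes, 2556 lay below it in this way and 2559 above. Egln1 stood at 1.62-fold the control on day 4, with an interval of 0.949 to 2.83. Ndrg1 and P4ha1 lay within counting error of the control on day 4 (1.09-fold and 1.02-fold lower, intervals 0.921 to 1.30 and 0.861 to 1.21) and above it again on day 14, at 1.59-fold and 1.61-fold (intervals 1.36 to 1.85 and 1.38 to 1.88). On day 14 Egln1 was 2.00-fold above it (interval 1.19 to 3.47) and Bnip3 1.33-fold (interval 1.21 to 1.47), all short of the call, while Txnip was 1.29-fold lower (interval 1.16 to 1.43).

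**Figure D2:**
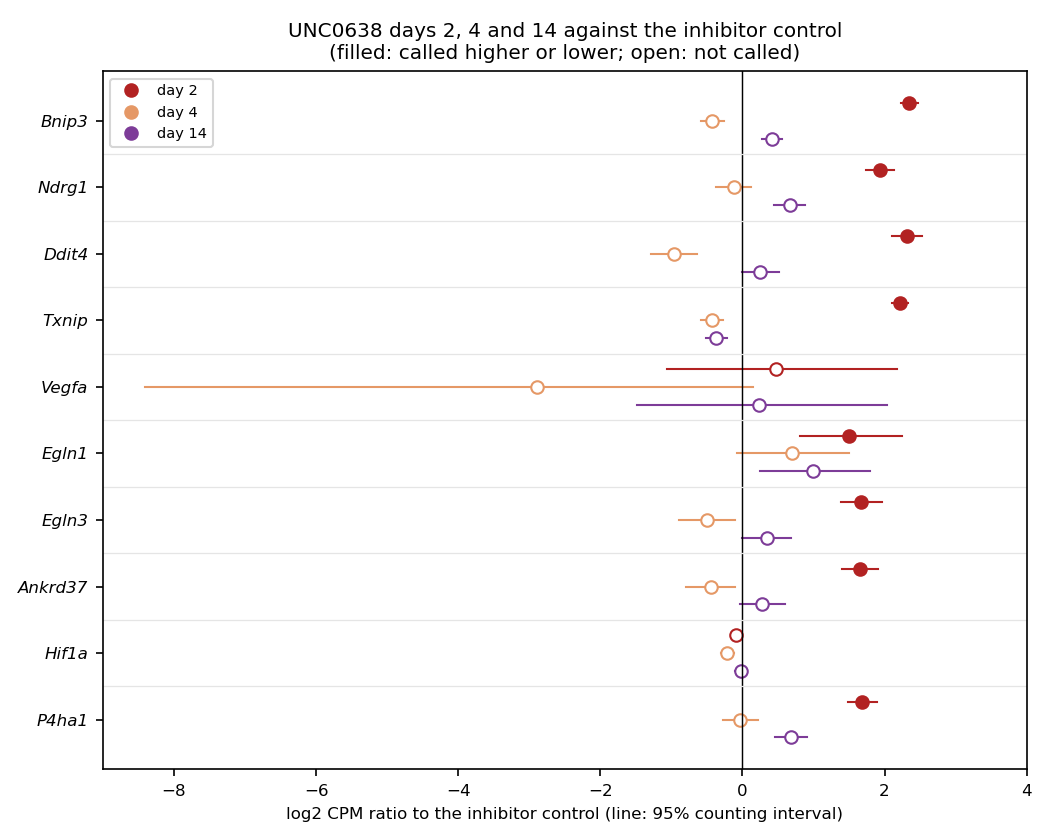
Log2 ratio of CPM to the inhibitor control for each of the 10 genes on days 2, 4 and 14 of UNC0638, with lines for the 95% counting interval; filled points were called higher or lower. The 8 filled points all belong to day 2, Hif1a lies close to 0 on the 3 days, and the long line of Vegfa on day 4 rests on 1 count.

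Other genes of the same pathways were described from lists that leave out the members and that share a few genes (P4ha2 and Slc2a1 stand in more than 1). Among other hypoxia-inducible genes, 10 of 46 measured genes (21.7%) were called higher on day 2 and 0 lower, with a median log2 difference of 0.50 beside 0.01 over all genes. Beyond counting error, 30 of the 46 lay above the control and 5 below. The 4 with the largest log2 differences were Bhlhe40, a repressor of transcription (45.6 against 7.20 CPM, 6.33-fold, interval 5.13 to 7.88), the secreted stanniocalcin Stc1 (6.87 against 0.734 CPM, 9.36-fold, interval 4.93 to 20.0), the glycogen phosphorylase Pygl (6.72 against 1.69 CPM, 3.98-fold, interval 2.54 to 6.49) and the vasodilator peptide gene Adm (4.78 against 1.32 CPM, 3.62-fold, interval 2.17 to 6.37). All 4 rest on 10 to 98 counts in the control. Glycolytic HIF targets had 2 of 19 measured genes called higher and 0 lower, with a median of 0.50: Pfkp, a phosphofructokinase (2.93-fold, interval 2.82 to 3.04), and Aldoc, an aldolase (2.13-fold, interval 1.92 to 2.36). Of the 19, 14 lay above the control beyond counting error and 4 below.

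On the nutrient side, 3 of 15 measured Txnip partners and MondoA targets were called higher and 0 lower, with a median of 0.01: Arrdc4, G0s2, an inhibitor of lipolysis (4.88-fold, interval 3.25 to 7.59), and the Kruppel-like factor Klf11 (2.12-fold, interval 1.84 to 2.45). This list was divided: with Txnip itself counted, 5 of 16 lay above the control beyond counting error and 6 below. Among nutrient-stress and mTORC1 regulators, 1 of 23 was called higher (4.35%, near the 3.12% of all genes) and 0 lower: Foxo3, a transcription factor active when growth signals are low (2.70-fold, interval 2.04 to 3.64). In the integrated stress response list, the Atf4 pathway that answers amino acid shortage and endoplasmic reticulum stress, 4 of 12 rose and 0 fell: Ddit3, which encodes Chop (32.5 against 3.38 CPM, 9.63-fold, interval 7.13 to 13.3), Nupr1 (5.81-fold, interval 4.94 to 6.86), the glutathione-degrading enzyme gene Chac1 (2.94-fold, interval 2.68 to 3.23) and the asparagine synthetase gene Asns (2.00-fold, interval 1.95 to 2.06). The summed level of that list was 3415 CPM on day 2, against 2144 CPM in the control and 1643 and 1668 CPM on days 4 and 14. On the same day the summed mitochondrially encoded genes were at their lowest of the 4 libraries (10392 CPM against 14708 to 17418 CPM in the other 3). Of 6 measured trophoblast markers, 0 were called higher and 2 lower than in the control: the keratin genes Krt8 (10.9-fold) and Krt18 (3.59-fold). The list was divided, as 3 of the 6 had a level above the control, 1 of them beyond counting error. What part these shifts have in the members' rise was not tested.

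DnmtDKO and DnmtTKO were set against WT J1, which asks what differs without DNA methylation enzymes. In DnmtDKO, 3 members were called higher and 1 lower, where 9.23% of 13743 genes were called higher and 9.89% lower. In DnmtTKO, 0 were called higher and 2 lower, where 11.0% of 13924 genes were called higher and 10.6% lower. The share of calls that were higher was 48.3% in the DKO (63.7% with total counts, 71.9% with TPM) and 50.9% in the TKO (65.5% and 73.0%). The 3 members higher in the DKO were the hypoxia-inducible genes Bnip3, Egln3 and Ankrd37, and Txnip was lower in each mutant.

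Bnip3 stood at 158 CPM in WT J1, 392 in DnmtDKO and 159 in DnmtTKO, and of the mutants the DKO was called, at 2.48-fold higher (interval 2.36 to 2.60). Its DKO level was the highest of all 10 libraries by CPM, while by TPM day 2 was slightly above it (251 against 249 TPM). Ankrd37 stood at 17.9, 53.6 and 27.4 CPM in the same order, 3.00-fold higher in the DKO (interval 2.62 to 3.46), with the TKO 1.53-fold higher (interval 1.32 to 1.79) and not called. Egln3 stood at 4.23, 10.4 and 2.90 CPM, 2.46-fold higher in the DKO (interval 1.83 to 3.33), a call that was lost against WT TT2 (log2 difference 0.50). P4ha1, at 16.0, 26.1 and 19.4 CPM, was 1.62-fold higher in the DKO (interval 1.38 to 1.91), called only by deposited TPM (log2 difference 1.08). Hif1a, at 161, 208 and 178 CPM, was 1.29-fold and 1.10-fold higher and not called. Against WT TT2, Hif1a in the DKO was called higher (log2 difference 1.16).

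Txnip showed the reverse: 272 CPM in WT J1, 61.4 in DnmtDKO and 58.0 in DnmtTKO. It was 4.44-fold lower in the DKO (interval 4.14 to 4.76) and 4.69-fold lower in the TKO (interval 4.38 to 5.02). Both comparisons rest on the 1 WT J1 library, whose Txnip was the highest of all 10 libraries; against WT TT2 (49.3 CPM) the log2 differences were 0.31 and 0.23, with no call. Vegfa stood at 9.06, 5.32 and 3.07 CPM (135, 89 and 56 counts) and was 2.95-fold lower in the TKO (interval 2.15 to 4.11). By deposited TPM its log2 difference in the TKO was -0.76, and against WT TT2 -0.15, neither of them a call. Ndrg1, at 10.8, 9.26 and 5.31 CPM, was 2.03-fold lower in the TKO (interval 1.57 to 2.65) but its log2(CPM + 1) difference of -0.90 missed the call. Egln1 stood at 11.2, 11.9 and 8.21 CPM without a call, and Ddit4 at 0.537, 1.43 and 0.219 CPM, on 8, 24 and 4 counts.

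In the lists without members, more genes were higher than lower among hypoxia-inducible and glycolytic genes in each mutant, also in DnmtTKO, where no member was called higher. Over all genes, 9.23% were called higher in DnmtDKO and 11.0% in DnmtTKO. In DnmtTKO the lists stood at 20.0% (hypoxia-inducible) and 16.7% (glycolytic), the latter near the share of all genes. In DnmtDKO, 11 of 47 other hypoxia-inducible genes were higher (23.4%) and 1 lower, and 6 of 18 glycolytic HIF targets were higher (33.3%) and 0 lower, with medians of 0.36 and 0.64 beside 0.01 over all genes. The leading ones included the adenylate kinase Ak4 (61.3 against 11.7 CPM, 5.25-fold, interval 4.47 to 6.20), the glucose transporter gene Slc2a1 (294 against 80.5 CPM, 3.65-fold, interval 3.43 to 3.89), the pyruvate kinase gene Pkm (2.77-fold, interval 2.66 to 2.89) and Slc16a3, a lactate exporter (3.47 against 0.537 CPM, 6.45-fold, interval 3.07 to 15.7). In DnmtTKO, 9 of 45 other hypoxia-inducible genes were higher and 3 lower (Bhlhe40, 16.3-fold, and, named after their values were seen, Rora and Mif), with a median of 0.07. Of 18 glycolytic genes, 3 were higher there (Slc16a3, Slc2a1 and Pkm) and 1, Pdk1, lower, with a median of 0.23, while the members' own counts were 0 higher and 2 lower. The integrated stress response list went the other way, with 6 of 12 lower and 0 higher in each mutant: Nupr1 fell 12.1-fold in the DKO (interval 10.9 to 13.5) and 45.8-fold in the TKO (interval 38.0 to 55.6), and Ddit3 fell 3.81-fold and 9.63-fold. Of 15 measured Txnip partners and MondoA targets, 2 were higher and 3 lower in the DKO (median -0.01), and 1 was higher and 5 lower in the TKO (median 0.01). Among the lower were G0s2, by 19.7-fold and 12.4-fold, and Klf10, by 2.27-fold and 3.57-fold, whereas Arrdc4 was not called in either mutant (83.4 CPM in WT J1, 55.1 in the DKO and 65.7 in the TKO). These values share the WT J1 library with those of the members. Slc2a1, Pkm and Slc16a3 were also called lower in WT J1 than in WT TT2 (below), and the lists were not set against WT TT2 here.

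G9a CM and the library labelled G9aDKO were set against WT TT2, which asks what differs with the mutant G9a transgene or without both enzymes. In G9a CM, 0 members were called higher and 1 lower, where 5.40% of 13504 genes were called higher and 5.07% lower. In the library labelled G9aDKO, 0 were called higher and 1 lower, where 9.77% of 14027 genes were called higher and 7.09% lower (57.9% of calls higher, 70.0% with total counts). A count of 1 in 10 is near those shares, so the members as a set did not stand out here. As Ehmt2 was not lower in the library labelled G9aDKO, its directions rest on the label.

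The member called in G9a CM was Ankrd37, at 7.30 CPM against 24.5 CPM in WT TT2, 3.35-fold lower (interval 2.76 to 4.09). That was the lowest of the 10 libraries, within counting error of day 4 (8.20 CPM). In the library labelled G9aDKO it stood at 28.9 CPM, 1.18-fold above WT TT2 (interval 1.03 to 1.35). Bnip3 ran the other way round: 180 CPM in WT TT2, against 256 CPM in G9a CM, 1.43-fold higher (interval 1.37 to 1.49) and not called, and 61.5 in the library labelled G9aDKO, 2.92-fold lower (interval 2.70 to 3.15) and called. Both calls depend on the control: against the inhibitor control, of the same genotype as WT TT2, the log2 difference of Bnip3 in the library labelled G9aDKO turned to 0.32, and that of Ankrd37 in G9a CM was -0.55, with no call. Egln3 was also lower in the library labelled G9aDKO than in WT TT2, by 1.99-fold (3.54 against 7.04 CPM, interval 1.43 to 2.82), with G9a CM at 9.78 CPM, neither of them called. The Vegfa level was 3.50 CPM in WT TT2, against 1.30 CPM in G9a CM and 1.26 CPM in the library labelled G9aDKO, with log2(CPM + 1) differences of -0.97 and -0.99 that just missed the call and passed it with an added 0.25 CPM in place of 1 (-1.28 and -1.31).

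The remaining members moved less. In the order WT TT2, G9a CM and the library labelled G9aDKO, Hif1a stood at 92.6, 112 and 136 CPM and Txnip at 49.3, 71.5 and 33.6 CPM. Ndrg1 stood at 7.20, 10.8 and 11.2 CPM, Egln1 at 10.6, 6.07 and 9.60 CPM, P4ha1 at 18.3, 16.5 and 17.3 CPM and Ddit4 at 1.42, 1.65 and 1.02 CPM. None of these was called, and the levels of P4ha1 in the 3 libraries lay within counting error of each other. In G9a CM, 5 of 18 glycolytic HIF targets were higher (27.8%) and 0 lower: the enzyme genes Pfkl and Tpi1 at 2.80-fold and 2.60-fold (intervals 2.52 to 3.12 and 2.54 to 2.67), Pkm, Eno1 and, named after its value was seen, Ldha. In the library labelled G9aDKO, 0 of 18 were higher and 2 lower, the kinase Pdk1, which keeps pyruvate out of the mitochondrion (2.61-fold, interval 2.41 to 2.82), and Aldoc (3.89-fold, interval 3.17 to 4.82).

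**Figure D3:**
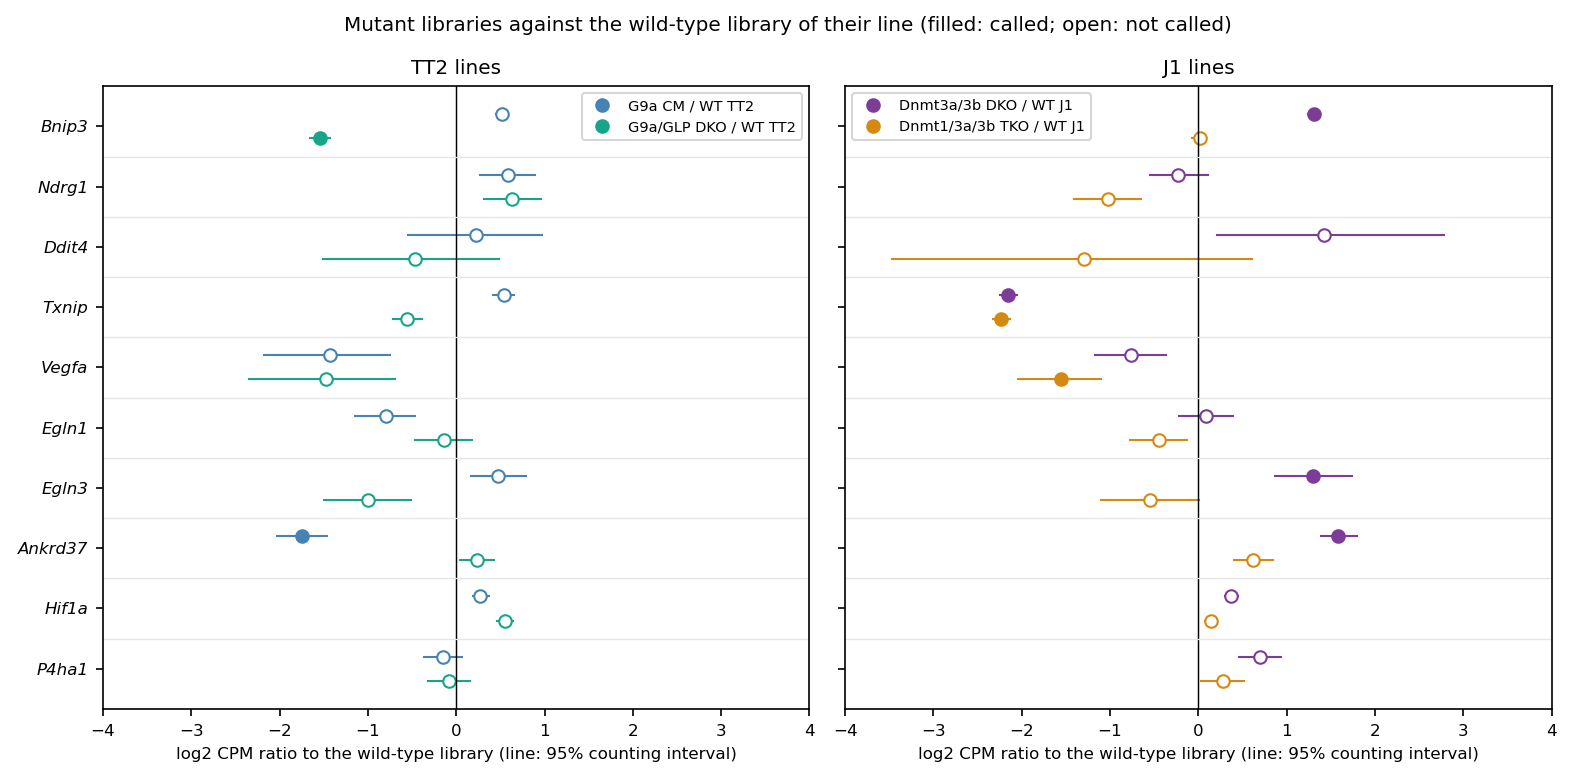
Log2 ratio of CPM in each mutant library to the wild-type library of its line (left, WT TT2; right, WT J1) for the 10 genes, with lines for the 95% counting interval; filled points were called, and G9a/GLP DKO stands for the library labelled G9aDKO. Txnip lies far left of 0 in the pair of J1 mutants, Bnip3, Egln3 and Ankrd37 lie right of 0 in DnmtDKO, and Bnip3 and Ankrd37 are the filled points on the left.

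The control libraries differed from each other over many genes, the members among them. The inhibitor control and WT TT2 carry the same genotype, yet 2 members were called higher and 4 lower, where 25.2% of 13667 genes were called higher and 22.0% lower. The 2 of 10 higher are near the share of all genes, while the 4 of 10 lower are above that share by CPM. Ddit4 was 11.0-fold higher in the inhibitor control (15.6 against 1.42 CPM, interval 7.73 to 16.2) and Ndrg1 2.64-fold higher (19.0 against 7.20 CPM, interval 2.18 to 3.21). Bnip3 was 3.65-fold lower (49.1 against 180 CPM, interval 3.37 to 3.97), Egln1 6.55-fold lower (1.62 against 10.6 CPM, interval 4.24 to 10.6), Vegfa 7.94-fold lower (0.441 against 3.50 CPM, interval 3.51 to 22.2) and Ankrd37 2.19-fold lower (11.2 against 24.5 CPM, interval 1.83 to 2.63). By deposited TPM, Vegfa and Ankrd37 were not called (log2 differences -0.83 and -0.73), which left 2 members lower. Hif1a was 1.78-fold higher in the inhibitor control (165 against 92.6 CPM, interval 1.68 to 1.89), not called by CPM but called by TPM (log2 difference 1.13). By CPM, no inhibitor library overlapped the range of the 6 wild-type and mutant libraries for Ndrg1, Ddit4, Vegfa and Egln1. How many of all genes lay apart in this way was not counted, so the separation is not shown to be particular to these members. By TPM this held for Ndrg1 and Ddit4 but not for Egln1, at 2.00 TPM on day 2 against 1.90 TPM in G9a CM, nor for Vegfa, at 0.900 against 0.460 TPM. The sets also differ in the fragment lengths and mitochondrial sums given above. Between the sets, treatment, vehicle and library set cannot be told apart for the libraries given UNC0638, nor vehicle and library set for the inhibitor control. Against WT TT2 in place of the inhibitor control, 5 members were higher on day 2 and 2 lower, where 26.5% of 13889 genes were called higher and 21.2% lower, so the 2 of 10 lower are near the share of all genes. Bnip3 and Ankrd37 lost their calls (log2 differences 0.48 and 0.50), Egln1 turned to -1.05 and Vegfa to -1.48. Ndrg1, Ddit4, Txnip, Egln3 and P4ha1 were higher on day 2 against either control.

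WT J1 and WT TT2 differ in strain. Of the members, 2 were higher in WT J1 and 0 lower, where 12.5% of 13735 genes were called higher and 11.0% lower (53.3% of calls higher, 43.2% with total counts, 30.8% with TPM). Txnip was 5.53-fold higher (272 against 49.3 CPM, interval 5.19 to 5.89) and Vegfa 2.59-fold higher (9.06 against 3.50 CPM, interval 1.97 to 3.42), the latter not a call by deposited TPM (log2 difference 0.60). Of 15 other Txnip partners and MondoA targets, 5 were also higher in WT J1 (33.3%) and 1 lower: Arrdc3 (3.77-fold), Klf11 (3.35-fold), Klf10 (2.80-fold), G0s2 (2.56-fold) and Arrdc4 (2.07-fold) were higher and Arrb1, an arrestin gene named after its value was seen, was lower (2.78-fold). Their median log2 difference was -0.19 all the same. Glycolytic HIF targets had 0 of 18 higher and 4 lower: Pkm (2.72-fold, interval 2.61 to 2.83), Slc16a3, Eno1 and Slc2a1.

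**Figure D4:**
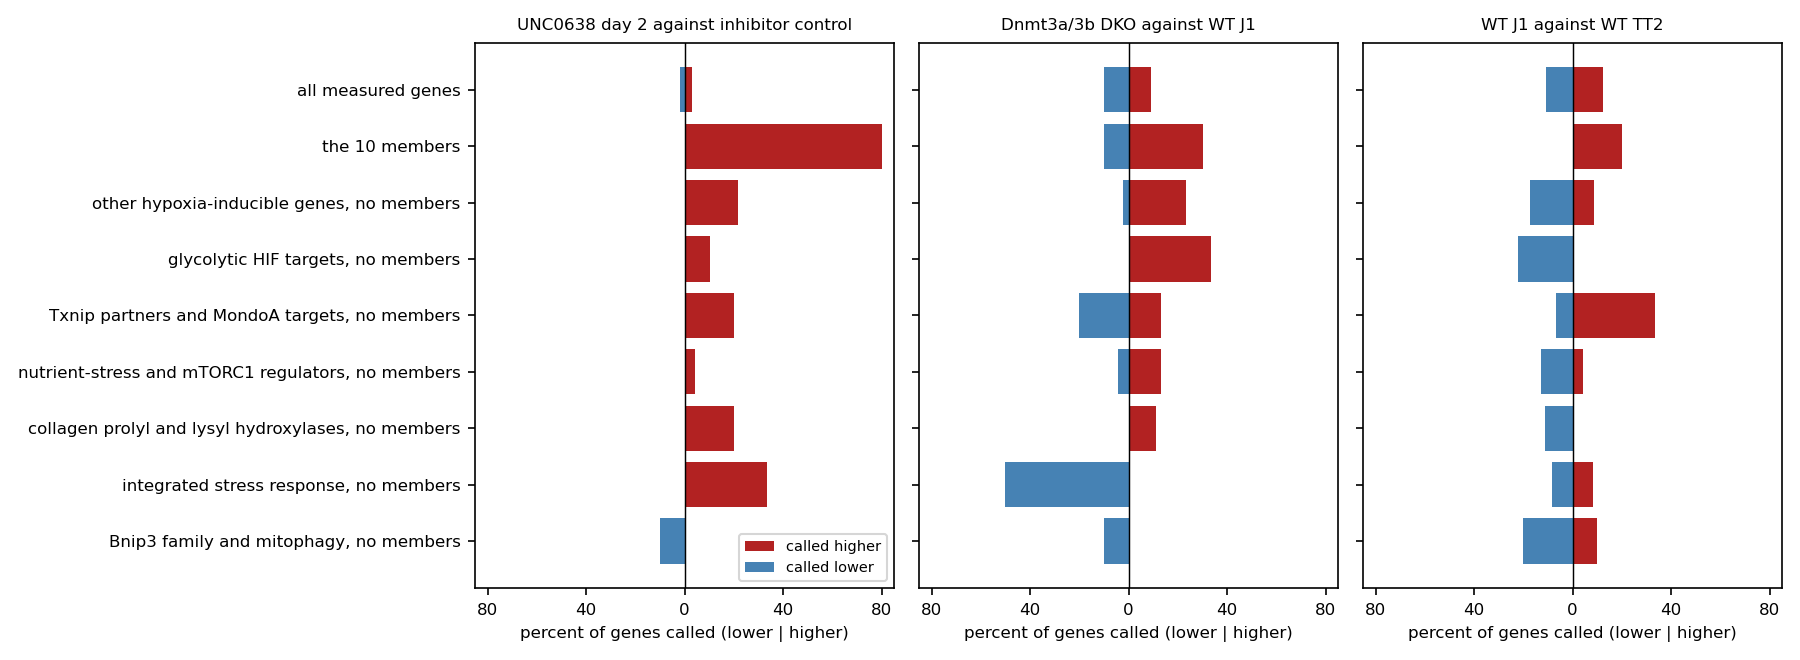
Percent of genes called higher (right of 0) or lower (left of 0) in 3 comparisons, for all measured genes, the 10 genes described here and 7 lists of measured genes without them, with 1 library on each side. On day 2 the bar of the 10 genes reaches 80 percent because 8 of 10 were called, and the genes were chosen with results of these libraries known. The integrated stress response list lies right of 0 on day 2 and left of 0 in DnmtDKO.

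Per length, by TPM, Bnip3 was the most abundant member in 6 of the 10 libraries. Hif1a led in the inhibitor control and on day 4 (48.1 and 39.2 TPM), Txnip in WT J1 (239 TPM) and Ankrd37 in the library labelled G9aDKO (51.2 TPM). On day 2 the order was Bnip3 (251 TPM), Txnip (173), Ankrd37 (78.1), Ddit4 (75.8), Hif1a (53.7), Ndrg1 (41.0), P4ha1 (32.2), Egln3 (17.1), Egln1 (2.00) and Vegfa (0.900). In the inhibitor control Hif1a was followed by Bnip3 (40.5), Txnip (31.7), Ankrd37 (20.3) and Ddit4 (12.5).

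Over the 10 libraries the span of a member's CPM, highest over lowest, ran from 2.25 for Hif1a and 3.76 for P4ha1 to 354 for Ddit4, whose lowest library held 4 counts. Vegfa is left out of this range because its lowest library held 1 count. Ordered by CPM, neighbouring libraries were within counting error in 8 of 9 steps for Egln1, 7 of 9 for Egln3 and 6 of 9 for Ddit4, Vegfa and P4ha1. P4ha1 went by steps within counting error over 7 libraries from WT J1 (16.0 CPM) to DnmtTKO (19.4 CPM), although these ends differed by more (1.21-fold, interval 1.02 to 1.43). DnmtDKO, day 14 and day 2 lay above them, each a step beyond counting error. Bnip3, Txnip, Hif1a, Ndrg1 and Ankrd37 had 3, 3, 4, 4 and 4 steps within it. The top step, day 14 to day 2, was beyond counting error for Ndrg1 (2.41-fold), Ddit4 (4.16-fold), Egln3 (2.51-fold) and P4ha1 (2.00-fold), the 4 members whose highest library of all 10 by CPM was day 2. By TPM, day 2 was also the highest for Bnip3 and Hif1a.

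Likeness between genes was described by Pearson's r of log2(CPM + 1) over the 10 libraries, among 9271 protein-coding genes that reached 10 CPM. Because the libraries fall into the sets described above, r was also taken after centring within each set. The genes most like Bnip3 were Tpp2, Morc3 and the glycolytic gene Pgk1 (r = 0.914, 0.901 and 0.900), and after centring Trappc9, the hexokinase gene Hk2 and Tmem170b (0.930, 0.926 and 0.905, from -0.272, 0.881 and 0.477 without it). Hk2 was also the gene next after Lzts2 for Egln3 after centring (0.923), a likeness absent without centring (-0.053). For Ddit4 the first was Map3k4 (0.981, or 0.895 centred), for Txnip Nars2 (0.933, or 0.940 centred) and for Hif1a Glud1 (0.941, or 0.948 centred). Among the members, Ddit4 and Ndrg1 were most alike over the 10 libraries (0.95, or 0.88 centred), and after centring Bnip3 and Egln3 (0.89, from 0.31) and Ddit4 and Egln3 (0.89, from 0.82) were level. Hif1a followed none of the other members above 0.36, or 0.48 centred.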

How the data were processed

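The 10 RNA libraries were analysed; 120 other samples of the series were not analysed here. Reads were aligned with STAR 2.5.3a and quantified with RSEM on GRCm38 (mm10), per the submitters' processing notes. Annotation release and strand setting were not given in the sources used here. Reads of overlapping or antisense genes and of near-identical copies may therefore be split. Per the file headers, each deposited table gives for every gene the authors' expected count (an estimated count, 4.26% to 6.17% of them not whole), their TPM and other columns such as length, effective length and posterior SD.

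Expected counts were rounded and scaled to CPM with TMM library sizes (edgeR 4.0.16 in R 4.3.3). Exact Clopper-Pearson 95% intervals of a count ratio came from scipy 1.17.1 and tables from pandas 2.3.3 in Python 3.11.15. The intervals cover counting error only: without molecular identifiers, reads are not independent molecules. A fold against a library at 0 uses a floor of 3 counts. With 1 library a group, no test was run, and the procedure was tested on simulated data. IDs matched symbols for 52403 of 52550 genes (99.7%). Gene coordinates and promoters are RefSeq's for GRCm38.p6.

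Alternatives were DESeq2 1.42.0 size factors, total counts, TPM, a pseudocount of 0.25 CPM, no minimum or 10 CPM, another control library and, added after seeing the data, TMM within a library set. The text names all 10 members, their listed relatives, up to 4 genes of a list by size of log2 difference, and up to 3 genes most like a member. Members and lists were chosen with earlier results of these data known.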

Additional observations from a re-analysis of the deposited data

How the results depend on the processing

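No paired analysis was possible because each group has 1 library, and leaving out a replicate was not possible for the same reason. The 8 members higher on day 2 were 8 with DESeq2's size factors, with total counts, with no minimum, with a pseudocount of 0.25 CPM and with TMM within the set, and 7 with TPM or a minimum of 10 CPM, where Egln1 dropped out. With WT TT2 as control, the members higher and lower were 5 and 2 on day 2, 2 and 4 on day 4 and 2 and 3 on day 14, where 26.5% and 21.2%, 26.0% and 22.1%, and 27.1% and 21.5% of all genes were called. With that control Egln1 on day 2 turned to -1.05, the members lower were 0 in DnmtDKO and 1 in DnmtTKO (7.07% and 6.33% of all genes), and Txnip there turned to 0.31 and 0.23. With the inhibitor control as control, G9a CM had 2 members higher (20.3% of all genes), and the library labelled G9aDKO had 2 higher and 2 lower (23.0% and 24.3%) while Bnip3 turned to 0.32. With WT J1 as control, G9a CM had 1 higher and 3 lower (15.4% and 16.9%) and the library labelled G9aDKO 3 lower (16.2%). A pseudocount of 0.25 CPM gave 2 lower in G9a CM, 2 lower in the library labelled G9aDKO (also 2 with TMM within the set) and 1 lower in WT J1. TPM gave 1 lower in DnmtTKO, 2 lower in the inhibitor control (Bnip3 and Egln1) and 1 higher in WT J1, and a minimum of 10 CPM gave 1 lower in the TKO and 1 higher in WT J1. For changes made by another control, the cause was not tested. TPM moved the median log2 difference of all genes by 0.22 on day 2, 0.28 in each Dnmt mutant, 0.14 in the library labelled G9aDKO, 0.25 in the inhibitor control and -0.29 in WT J1, and total counts by 0.20, 0.17, 0.14, -0.09 and -0.11 in that order. Over all genes, the 415 called higher on day 2 were 710 with total counts, 854 with TPM, 790 with a pseudocount of 0.25 CPM, 133 with a minimum of 10 CPM and 3681 with WT TT2 as control. Depth limits Vegfa in the inhibitor libraries (1 to 12 counts) and Ddit4 in the other libraries (4 to 36 counts).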

Other observations

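In the integrated stress response list, no gene was called higher on day 4, on day 14 or in the TT2 mutants. Against the inhibitor control, 4 of its 12 genes were lower on day 4, where 0.671% of all genes were: Chac1 (3.74 against 40.8 CPM, 10.9-fold, interval 8.38 to 14.4), Atf3 (8.30-fold, interval 4.71 to 15.8), the pseudokinase gene Trib3 (2.96-fold, interval 2.69 to 3.28) and Ddit3 (2.84-fold, interval 1.65 to 5.07). On day 14, 2 of 12 were lower, Chac1 and Trib3 (4.15-fold and 2.31-fold), where 0.535% of all genes were. Against WT TT2, 4 of 12 were lower in G9a CM and 7 of 12 in the library labelled G9aDKO, where 5.07% and 7.09% of all genes were. The list was divided in G9a CM: 6 of its 12 genes had a level above that in WT TT2, 5 of them beyond counting error, such as the serine synthesis gene Phgdh (162 against 95.2 CPM). Nupr1, a small chromatin-associated stress protein gene, stood at 140 CPM in WT TT2 and 8.97 CPM in the library labelled G9aDKO (15.6-fold, interval 13.0 to 19.0), and Chac1 at 58.2 and 5.82 CPM (9.99-fold, interval 7.91 to 12.8).

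Among other hypoxia-inducible genes, 3 of 45 were higher on day 14 than in the inhibitor control (2.92% of all genes) and 0 lower: Bhlhe40 (20.3 against 7.20 CPM, 2.82-fold, interval 2.24 to 3.57), Adm (3.22-fold, interval 1.89 to 5.77) and Ak4 (2.12-fold, interval 1.92 to 2.34). Between the inhibitor control and WT TT2, 15 of 19 glycolytic HIF targets were higher in the inhibitor control (25.2% of all genes) and 1, the hexokinase gene Hk2, was lower (2.36-fold, interval 2.20 to 2.54, named after its value was seen). The largest was the lactate exporter Slc16a3, at 365 against 2.71 CPM (135-fold, interval 106 to 173). In the same pair of libraries Bnip3, Egln1, Ankrd37 and Vegfa were lower, and the library sets differ in fragment length and mitochondrial sums, whose part in this was not tested.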
